A study of Mus musculus with 12 samples.

Results

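The translation initiation factor genes are the mouse genes whose symbols begin with Eif and a digit, and they were followed here in oocytes that lack the RNA-binding protein gene Lsm14b. The members were taken by symbol, leaving out the gene Eif4enif1 and every symbol marked as a pseudogene with -ps. Eif4a3l2, a pseudogene by its RefSeq type, does not carry that mark and was kept as a member. Of 22801 genes in the table for metaphase II (MII, the mature egg), 62 matched the symbol pattern and 53 remained as members. The table for GV oocytes (germinal vesicle stage, before maturation resumes) held 3475 genes and no member. RNA came from pools of 15 oocytes per tube, from C57BL/6 females at postnatal day 35. The groups were CKO eggs at MII (Lsm14b floxed on both alleles with Gdf9-Cre, a recombinase driven by an oocyte gene promoter), WT eggs at MII (the same floxed alleles without Cre), CKO oocytes at GV and WT oocytes at GV. Each group had 3 libraries. All groups therefore carried the floxed alleles, and no group without them was measured.

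Initiation is the step of protein synthesis at which a ribosome is loaded on an mRNA and finds the start codon. eIF2 brings the initiator tRNA to the small subunit, eIF2B recharges eIF2 with GTP, and stress kinases that phosphorylate eIF2 block that recharging. The eIF4 group binds the cap at the 5′ end and unwinds the mRNA, eIF3 bridges mRNA and small subunit, eIF1 and eIF1A govern the scanning for a start codon, and eIF5 and eIF5B act when the subunits join. Fully grown oocytes hardly transcribe and carry their mRNAs through maturation, so that much of their gene control lies in which stored mRNAs are translated and which are degraded.

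Library depth at MII differed by genotype. The CKO libraries held 23077585 to 40530314 reads and the WT libraries 88494525 to 124872889, so that every CKO library was shallower than every WT library. Values are the authors' normalized counts, which are scaled for depth but not for gene length. No value here measures RNA per oocyte, so less of an mRNA and a changed total cannot be told apart. Lsm14b stood at 822 to 982 normalized counts in CKO eggs and at 10643 to 11641 in WT eggs, or 8.22% of the WT mean, and at GV at 1273 to 1601 in CKO oocytes and 18816 to 30132 in WT oocytes. WT replicate 3 stood apart from the rest at MII, correlating with the remaining 5 libraries at a Spearman coefficient of 0.847 to 0.877 over genes, where those 5 correlated with each other at 0.899 to 0.940. Values without this library are given below for some members, not always those that it moved most. For all 53 members they are in the plot of differences by complex. All 10 oocyte markers were measured, and their summed level was 1070054 to 1297838 normalized counts in CKO eggs and 902459 to 983091 in WT eggs. Padi6 was the largest part of that sum, and the median log2 difference of the list was 0.57. Bmp15 was lower without overlap, at 62632 ± 15660 in CKO eggs and 132010 ± 24674 in WT eggs (SD, n = 3 each). Its log2 difference was -1.09 (SE 0.33, limma adjusted p = 0.135). Gdf9 also had a negative log2 difference (-0.27), and the other markers of the list had positive ones. Of the 15 cumulus and granulosa cell markers 12 were measured, and their sum was 3228 to 4432 normalized counts in CKO eggs and 2668 to 5246 in WT eggs. Nr5a2 and Cyp19a1 made up most of that sum, and the median log2 difference of the list was 0.54. Fshr (log2 difference 4.25), Ptgs2 (4.57) and Inhba (3.57) were higher in every CKO library than in any WT library, all at low counts. Their limma adjusted p-values were 0.181, 0.170 and 0.245. Amh, Inha, Cyp19a1 and Has2 had negative log2 differences, from -3.22 to -0.97. For theca, stroma and endothelium, with 6 of 9 markers listed and 5 tested, the sum was 3950.4 to 4583 in CKO eggs and 3660 to 4827 in WT eggs. Pecam1 made up most of that sum, at 3989 ± 213 in CKO eggs and 3441 ± 610 in WT eggs (SD, n = 3 each). Its log2 difference was 0.23 (SE 0.28) and that of Star 0.19 (SE 2.10), while the median log2 difference of the list was -1.61. The endothelial receptor genes of this list, Tie1 (205 ± 79.9 in CKO eggs and 615 ± 146 in WT eggs) and Kdr (21.6 ± 37.4 in CKO eggs and 139 ± 34.6 in WT eggs; SD, n = 3 each), had limma adjusted p-values of 0.142 and 0.174. In the authors' deposited table for GV, Tie1, Kdr, Pdgfra and Col1a2 were listed as lower in CKO oocytes. For blood and immune cells, with 3 of 7 markers listed and 2 tested, the sum was 194 to 215 in CKO eggs and 1118 to 1925 in WT eggs, and the complement gene C1qb made up most of it. Limma called C1qb lower in CKO eggs (log2 difference -3.32, SE 0.45, adjusted p = 0.0128). Cd68 lay the other way (log2 difference 1.12, SE 1.21, limma adjusted p = 0.635). In the authors' deposited table for GV, C1qb was listed as lower (-1.21) and Cd68 as higher (1.51) in CKO oocytes. The part of these markers in the results below was not tested.

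In mature eggs lacking Lsm14b, 1 initiation factor transcript rose and 1 fell, and the other 51 did not pass the test. Eif4h encodes a small RNA-binding protein that stimulates the eIF4A helicase, and it was 5.75-fold as abundant on average in CKO eggs as in WT eggs. Eif2b4 encodes the delta subunit of eIF2B, and its mean in CKO eggs was 29.5% of that in WT eggs. By limma at an adjusted p under 0.05, with adjustment over 20388 genes, 2 of 53 members were called, beside 1.51% of all genes tested. In the higher direction limma called 0.52% of all genes and in the lower direction 0.991%. At an unadjusted p under 0.05 there were 6 members, 3 higher and 3 lower, beside 16.0% of all genes, 6.7% higher and 9.28% lower. Leaving out any 1 of the 5 libraries other than WT replicate 3 ended both member calls, and limma then called no gene at all at the adjusted threshold, with 2441 to 3007 genes at an unadjusted p under 0.05. The authors' deposited table called 3 of 53 members at an adjusted p under 0.05, beside 11.5% of its genes (4.6% higher and 6.94% lower), and marked 2 members up and 3 down, beside 13.6% of genes marked. Of the members 3.77% were thus called by limma, near the 2.93% of genes that average at least 200 normalized counts, as 45 of the members do. Of members, 5.66% were called in the authors' deposited table, below the share of all its genes. In 10 of 53 members the genotypes' libraries did not overlap, 5 higher and 5 lower in CKO, beside 22.4% of all genes tested (10.4% higher in CKO).

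Eif4h had 2839, 2008 and 4127 normalized counts in CKO replicates 2, 3 and 4, against 311, 455 and 794 in WT replicates 1, 2 and 3. Every CKO library lay more than 2-fold above the highest WT library, which was WT replicate 3. The mean was 2991 ± 1068 in CKO eggs and 519.9 ± 248 in WT eggs (SD, n = 3 each), and limma gave a log2 difference of 2.57 (SE 0.44, adjusted p = 0.0272). Without WT replicate 3 the log2 difference was 2.93 (SE 0.38, adjusted p = 0.0384), and in the authors' deposited table the log2 fold change was 2.52 with an adjusted p of 1.14e-05. Eif4b encodes another RNA-binding cofactor of eIF4A. It had 4122, 4362 and 5183 normalized counts in CKO eggs and 3877, 3814 and 3531 in WT eggs (log2 difference 0.28, SE 0.27, limma adjusted p = 0.628). The groups did not overlap for Eif4b either, but the difference was small. The count of Eif4h relative to that of Eif4b in the same library was 0.689, 0.460 and 0.796 in CKO eggs and 0.0803, 0.119 and 0.225 in WT eggs. This ratio does not depend on the scaling between libraries, but it restates the difference of Eif4h relative to another gene. It was chosen after the values were seen and was not tested.

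Eif2b4 had 3036, 2193 and 1817 normalized counts in CKO replicates 2, 3 and 4, against 6277, 6812 and 10826 in WT replicates 1, 2 and 3. The highest CKO library was under the lowest WT library by a factor of about 2. The mean was 2348 ± 624 in CKO eggs and 7972 ± 2486 in WT eggs (SD, n = 3 each; limma log2 difference -1.75, SE 0.33, adjusted p = 0.0354). Without WT replicate 3 the log2 difference was -1.51 with an adjusted p of 0.0558, just past the threshold, and the authors' deposited table gave -1.76 with an adjusted p of 9.65e-05. In the GENCODE annotation Eif2b4 overlaps Snx17, a sorting nexin gene on the opposite strand, and it is not known whether the counting used strand. Snx17 itself averaged 1313 ± 257 normalized counts in CKO eggs and 1286 ± 295 in WT eggs (SD, n = 3 each; limma log2 difference 0.04, SE 0.34, adjusted p = 0.962).

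**Figure D1:**
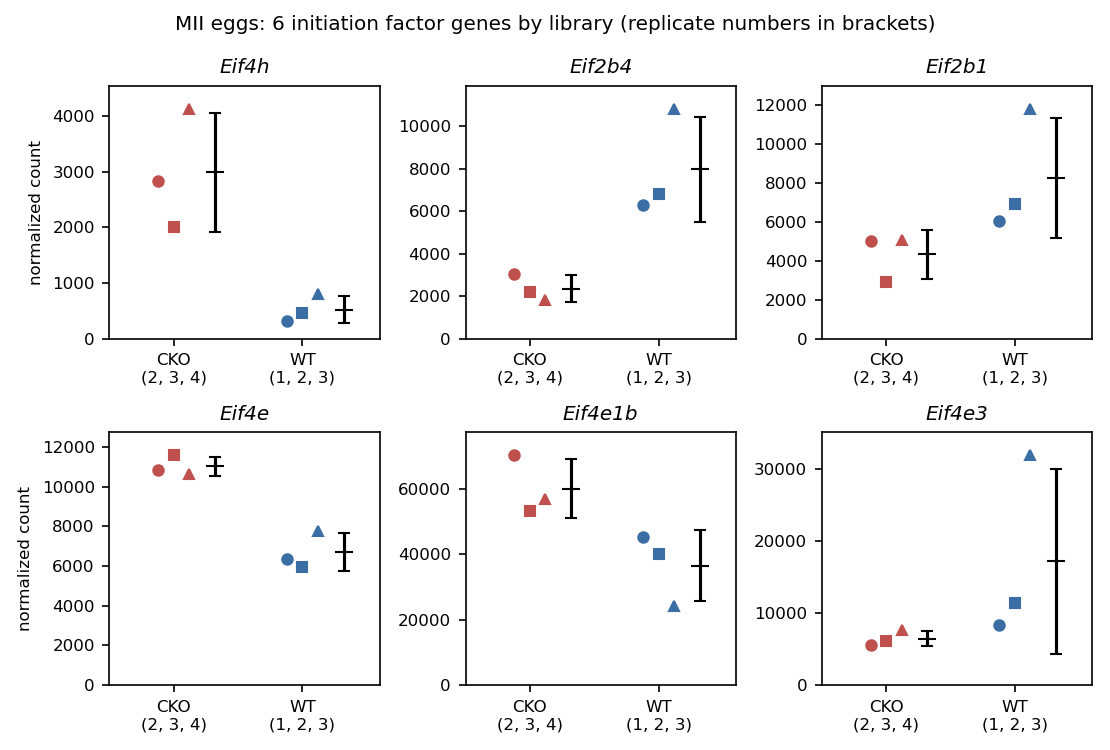
Normalized counts (vertical axes, from 0) of 6 initiation factor genes in MII eggs, with CKO libraries in red, WT libraries in blue, replicate numbers in brackets and the mean with its SD (n = 3) as a black bar. The panels were picked with the values known, all from the 10 of 53 members whose genotypes do not overlap. Of all genes tested 22.4% do not overlap. WT replicate 3 is the last triangle of each panel, at 31934 for Eif4e3 and 24226 for Eif4e1b.

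The other subunits of eIF2B did not follow Eif2b4 in a way that passed the test. eIF2B is a decamer in which the alpha, beta and delta subunits form a regulatory core and the gamma and epsilon subunits carry the exchange activity. Eif2b1, the alpha subunit, had 5013, 2894 and 5067 normalized counts in CKO eggs and 6061, 6921 and 11813 in WT eggs. The groups did not overlap, with a log2 difference of -0.92 (SE 0.36, limma adjusted p = 0.244) and -0.63 without WT replicate 3. Eif2b2, the beta subunit, averaged 608 ± 127 in CKO eggs and 537 ± 166 in WT eggs, and the gamma subunit gene Eif2b3 averaged 1698 ± 197 and 1499 ± 357 (SD, n = 3 each). The epsilon subunit gene Eif2b5 had a log2 difference of 0.55 (SE 0.44, limma adjusted p = 0.597), or 0.80 without WT replicate 3. Against Eif2b3 in the same library, the count of Eif2b4 was 1.68, 1.49 and 0.998 in CKO eggs and 4.60, 3.58 and 8.81 in WT eggs, without overlap. Against Eif2b1 it was 0.606, 0.758 and 0.359 in CKO eggs and 1.04, 0.984 and 0.916 in WT eggs, again without overlap. Both ratios have Eif2b4 as numerator and restate its difference relative to other subunits. They were chosen after the values were seen and were not tested.

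eIF2 itself has 3 subunits. None of the 5 genes of eIF2 and eIF2-like factors was called. Eif2s1, the alpha subunit that the stress kinases phosphorylate, had 615, 962 and 799 normalized counts in CKO eggs and 1017, 881 and 1237 in WT eggs, with overlap (log2 difference -0.41, SE 0.36, limma adjusted p = 0.625). Eif2s2, the beta subunit, averaged 3586 ± 967 in CKO eggs and 5745 ± 3041 in WT eggs (SD, n = 3 each). Its log2 difference was -0.58 (SE 0.40, limma adjusted p = 0.511), or -0.18 without WT replicate 3. Eif2s3x, the X-linked gene of the GTP-binding gamma subunit, had 5693, 9436 and 7822 normalized counts in CKO eggs and 9719, 9009.7 and 5942 in WT eggs, with a log2 difference of -0.10 and a 95% confidence interval of -0.81 to 0.60. The Y-linked copy Eif2s3y was not among the genes listed at either stage, and all oocytes came from females. Eif2a and Eif2d, whose products have been reported to deliver tRNA to the ribosome without eIF2, had log2 differences of 0.42 (SE 0.42) and 0.29 (SE 0.34).

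Of the eIF2 kinases 3 were measured and none was called. Eif2ak3, which encodes PERK, the kinase that responds to stress of the endoplasmic reticulum, had 266, 509 and 369 normalized counts in CKO eggs and 218, 171 and 178 in WT eggs. The groups did not overlap, but the difference did not pass the threshold by limma (log2 difference 0.97, SE 0.51, adjusted p = 0.381) or in the authors' deposited table (adjusted p of 0.117, marked up). The counts rest on 193 to 268 reads per CKO library and 285 to 370 per WT library. Eif2ak1, the heme-regulated kinase, had 8878, 9226 and 9380.1 normalized counts in CKO eggs and 10449, 11458 and 9921 in WT eggs. These values did not overlap either, at a log2 difference of only -0.21 (SE 0.25, limma adjusted p = 0.65). Eif2ak4, which encodes GCN2, the kinase that responds to uncharged tRNA, averaged 1467 ± 153 in CKO eggs and 2356 ± 1058 in WT eggs (SD, n = 3 each; limma adjusted p = 0.461). Its log2 difference was -0.60, or -0.25 without WT replicate 3.

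The cap-binding genes are a small family in which the members differed among themselves. Eif4e encodes the canonical cap-binding protein. Eif4e1b encodes an oocyte form that, in Xenopus, is found in a repressive complex on stored mRNAs. Eif4e3 encodes another cap-binding form and Eif4e2 the 4EHP protein, a repressor of translation. Eif4e had 10849, 11566 and 10616 normalized counts in CKO eggs, against 6359.8, 5939 and 7770.0 in WT eggs. All CKO libraries lay above all WT libraries and close to each other. The log2 difference was 0.73 (SE 0.26, limma adjusted p = 0.204), a difference that did not pass the threshold with all libraries but did without WT replicate 3 (0.84, SE 0.11, adjusted p = 0.0377). The authors' deposited table gave Eif4e an adjusted p of 0.0285 and a log2 fold change of 0.72. Eif4e1b had 70128, 53050.5 and 56778 normalized counts in CKO eggs, against 45119, 39918 and 24226 in WT eggs. The groups did not overlap, and the log2 difference was 0.76 (SE 0.32, limma adjusted p = 0.293), or 0.49 without WT replicate 3. Eif4e3 lay the other way, with 5624, 6092 and 7611 in CKO eggs and 8281, 11379 and 31934 in WT eggs. Its log2 difference was -1.18 (SE 0.46, limma adjusted p = 0.244) and -0.60 without WT replicate 3, so that this library carried much of the difference. Eif4e2 was low, at 81.6 ± 31.2 normalized counts in CKO eggs and 116 ± 107 in WT eggs (SD, n = 3 each).

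Levels of different genes were set side by side only per kilobase of exon, with exon lengths from GENCODE M21 for 51 of the 53 members, which may not be the authors' annotation. On that scale Eif4e1b had the highest mean of the members in both genotypes, with 26601 ± 3982 normalized counts per kilobase in CKO eggs and 16151 ± 4823 in WT eggs (SD, n = 3 each). Eif4a3 came next with 12322 ± 3176 in CKO eggs and 15144 ± 5407 in WT eggs (SD, n = 3 each). It encodes a helicase of the exon junction complex, which marks spliced mRNAs, and is no subunit of the cap-binding complex. In WT eggs Eif4e1b was the higher of the pair in each library, but their means did not differ beyond their spread, and in CKO eggs the lowest Eif4e1b library (23526) was above the highest Eif4a3 library (15108). In WT replicate 3 the order differed, since Eif4e3 stood at 12698 there, above Eif4e1b at 10743 and Eif4a3 at 9138. By its mean the next member in CKO eggs was Eif1b at 4708 ± 1171 and the next in WT eggs Eif4e3 at 6838 ± 5112 (SD, n = 3 each), and neither differed beyond its spread from the members just below it. Eif2b4 was 17th of 51 in CKO eggs and 8th in WT eggs.

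Eif4e1b took 88.5%, 84.4% and 84.0% of the transcripts of the eIF4E family per kilobase in CKO replicates 2, 3 and 4, against 82.1%, 76.1% and 43.4% in WT replicates 1, 2 and 3. Eif4e3 took 6.36%, 8.69% and 10.1% in CKO eggs and 13.5%, 19.5% and 51.3% in WT eggs. For both genes the genotypes did not overlap, with or without WT replicate 3. The gap for Eif4e1b was small, from 82.1% in WT replicate 1 to 84.0% in CKO replicate 4. Both genes together filled most of the family in every library, so their shares largely mirror each other and are not separate results. The shares also restate the counts above, which did not overlap either. The exact two-sided permutation test gave p = 0.1 for each gene. That is the smallest p that 3 against 3 libraries allow, so no conclusion is drawn from it. Eif4e took 5.98 ± 0.89% in CKO eggs and 4.61 ± 0.54% in WT eggs (SD, n = 3 each), with overlap (exact permutation p = 0.2). The share of WT replicate 3 was far from those of the other WT libraries for both Eif4e1b and Eif4e3.

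**Figure D2:**
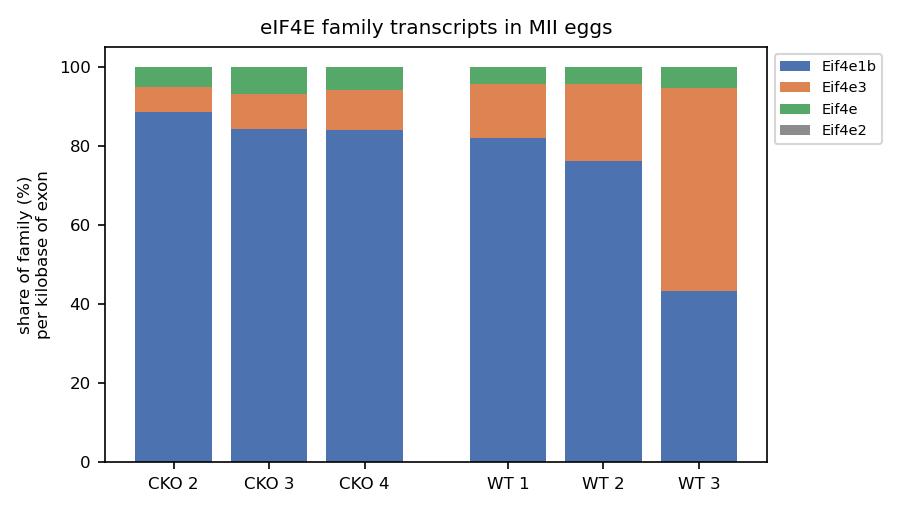
Share of each eIF4E family gene in the family's normalized counts per kilobase of exon (vertical axis, percent) in each MII library, CKO replicates 2, 3 and 4 at the left and WT replicates 1, 2 and 3 at the right. Eif4e1b fills 84.0% to 88.5% of every CKO bar and 43.4% to 82.1% of the WT bars, and Eif4e2 is too low to be seen.

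The scaffolds and helicases of the cap-binding complex were called in neither direction. Eif4g1, the main scaffold, averaged 6816 ± 257 in CKO eggs and 7501 ± 2163 in WT eggs, and its paralog Eif4g3 averaged 14133 ± 832 and 11736 ± 2515 (SD, n = 3 each). Eif4g2, which encodes a related protein that does not bind eIF4E, had a log2 difference of -0.11 with a 95% confidence interval of -0.75 to 0.53. The intervals of Eif4g1 and Eif4g3 were -0.75 to 0.54 and -0.33 to 0.91, so that all 3 lay within a 2-fold change either way. Eif4a1 and Eif4a2 encode the helicase itself. Their log2 differences were 0.30 and -0.38, or 0.70 and 0.18 without WT replicate 3. Reads of Eif4a1 and of Eif4a3 may be shared with processed copies such as Eif4a-ps4, Eif4a3l1 and Eif4a3l2, so their values are uncertain. In all, 1 of 14 eIF4 members rose and 13 did not pass the test.

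The 4E-binding proteins sequester eIF4E when the kinase mTOR is inactive. Eif4ebp2 had 989, 1046 and 866 normalized counts in CKO eggs and 1233, 1115 and 2686 in WT eggs. The groups did not overlap, with a log2 difference of -0.68 (SE 0.40, limma adjusted p = 0.435) and -0.28 without WT replicate 3. Eif4ebp1 was near the limit of detection in the CKO libraries and in WT replicate 3. It stood at 13.8 normalized counts in CKO replicate 2 and at 0 in CKO replicates 3 and 4, against 98.4, 64.6 and 4.61 in WT replicates 1, 2 and 3. The fitted log2 difference of -3.76 (SE 1.69, limma adjusted p = 0.315) depends on the pseudocount. Without WT replicate 3 it was -5.04 (SE 1.56, limma adjusted p = 0.173).

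eIF3 is the largest initiation complex, and none of its 14 measured genes was called in either direction. Of these, 9 had a positive and 5 a negative log2 difference, from -1.43 for Eif3f to 1.14 for Eif3j1, with a median of 0.07. Eif3c and Eif3e, subunits of the core, averaged 2049 ± 419 and 2179.9 ± 274 in CKO eggs, against 1969 ± 295 and 1787 ± 380.4 in WT eggs (SD, n = 3 each). Their 95% confidence intervals were -0.66 to 0.75 and -0.39 to 0.99 on the log2 scale, the only 2 of the 14 that lay within a 2-fold change either way. For the other 12 a 2-fold change was not excluded at this replicate spread. Eif3m, a core subunit, had 922, 491 and 769 normalized counts in CKO eggs and 911, 1212 and 1395 in WT eggs, the smallest p in the complex (log2 difference -0.71, SE 0.39, limma adjusted p = 0.391). CKO replicate 2 was just above WT replicate 1, so the groups overlapped. Eif3j1, a loosely bound subunit, had 226, 347 and 565 in CKO eggs and 118, 109 and 316 in WT eggs (log2 difference 1.14, SE 0.64, limma adjusted p = 0.401), and 1.63 without WT replicate 3. Its near-identical copy Eif3j2 had 53.7, 96.2 and 204 in CKO eggs and 62.5, 60.4 and 185 in WT eggs, and reads of the pair cannot be assigned with certainty. Eif3f rested on 12 to 54 reads in the CKO libraries. Eif3l averaged 1447 ± 359 in CKO eggs and 953 ± 467 in WT eggs (SD, n = 3 each), with a log2 difference of 0.73, or 0.21 without WT replicate 3.

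**Figure D3:**
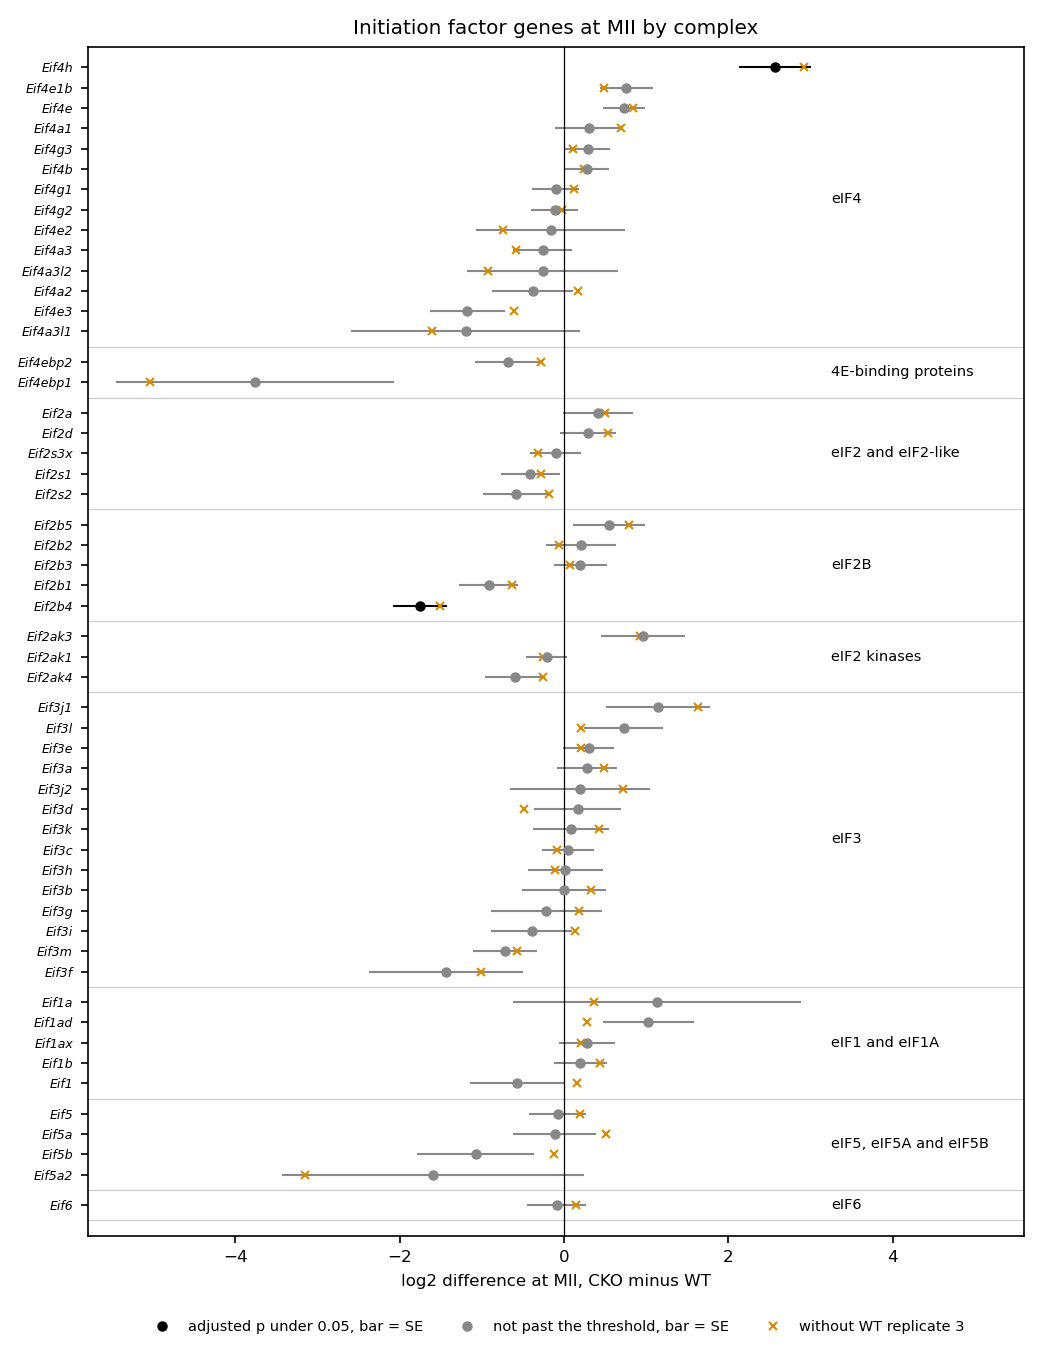
Log2 difference at MII, CKO minus WT (horizontal axis), of all 53 members by complex, with the SE as a bar, black where the adjusted p was under 0.05 and grey elsewhere, and an orange cross for the fit without WT replicate 3. Eif4h at 2.57 and Eif2b4 at -1.75 are the called members, and the eIF3 subunits lie between -1.43 and 1.14.

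Among factors of scanning and subunit joining, the called count was 0 of 5 eIF1 and eIF1A genes, 0 of 4 eIF5, eIF5A and eIF5B genes and 0 of 1 for Eif6. By limma, none of these 10 genes had an unadjusted p under 0.05, and in the authors' deposited table only Eif5b did (0.043), with none under 0.05 after adjustment. Several of them turned on a single library. Eif5b, the GTPase of subunit joining, had 2809, 4616 and 8122 normalized counts in CKO eggs and 4626, 5754 and 37119 in WT eggs. Its log2 difference was -1.08 (SE 0.72, limma adjusted p = 0.498), and -0.13 without WT replicate 3. The authors' deposited table marked Eif5b down, with a log2 fold change of -1.61 and an adjusted p of 0.189. Eif1, which guards the stringency of start codon choice, had 4254, 2317 and 4493 in CKO eggs and 2838, 3547 and 14408 in WT eggs, with a log2 difference of -0.57 that became 0.16 without WT replicate 3. Eif1ad, an eIF1A domain gene, went the other way in that library, with 8878, 8249 and 6318 in CKO eggs and 7374, 5464 and 1354 in WT eggs (log2 difference 1.03, and 0.29 without WT replicate 3). Eif5, which stimulates GTP hydrolysis by eIF2, averaged 5623 ± 1705 in CKO eggs and 5967 ± 2077 in WT eggs, and Eif6, which keeps the large subunit from joining early, averaged 2358 ± 746 and 2508 ± 778 (SD, n = 3 each). Eif5a, whose product carries the modified residue hypusine and helps ribosomes through difficult stretches, had a log2 difference of -0.11, or 0.51 without WT replicate 3. Eif1ax, an eIF1A gene on the X chromosome, had a log2 difference of 0.28 (SE 0.34). Eif1a and Eif5a2 were nearly absent, and each was at 0 in at least 1 library of both genotypes.

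WT replicate 3 was the highest of the 6 libraries for 20 of 53 members, beside 26.1% of all genes tested, and the lowest for 12 members, beside 21.8% of all genes. Its value lay over 2-fold from the mean of WT replicates 1 and 2 in 25 of 53 members, 16 above and 9 below, where 58.2% of all genes tested did so. The largest ratio was that of Eif5b, at 7.15, and among members with at least 200 normalized counts on average the lowest was that of Eif1ad, at 0.211. Eif3d, a subunit with a cap-binding activity of its own in human cells, had 4069.8, 4408 and 2427 normalized counts in CKO eggs and 5719, 4234 and 1272 in WT eggs. Without WT replicate 3 limma called 2 members, Eif4h and Eif4e, both higher in CKO, beside 4.37% of all genes (1.3% higher and 3.06% lower). Whether this library differs for a technical or another reason was not tested.

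**Figure D4:**
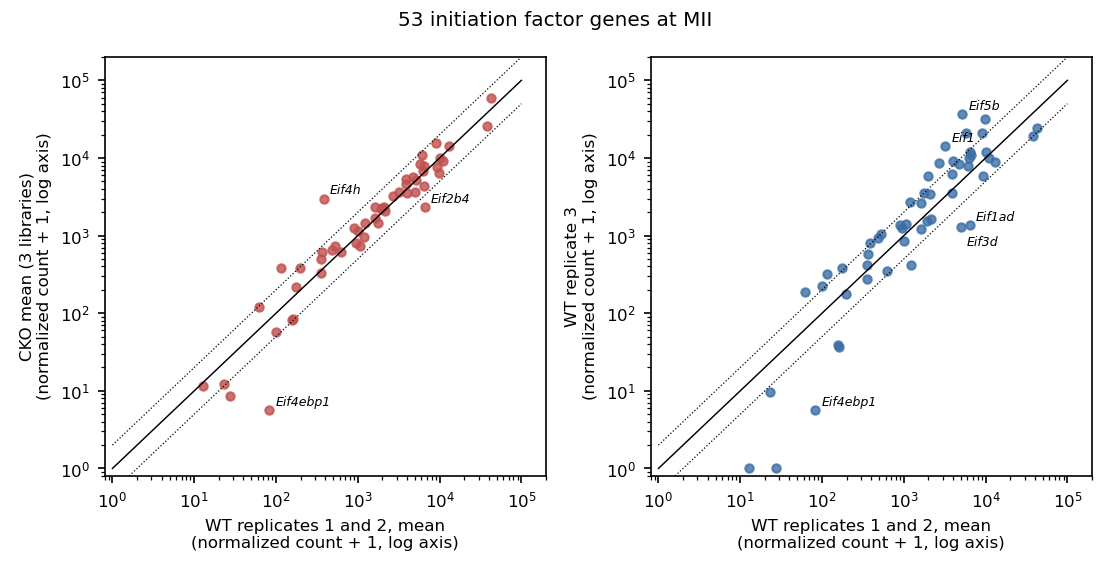
Normalized counts plus 1 of the 53 members on log axes, the mean of the 3 CKO libraries (left) and WT replicate 3 (right) against the mean of WT replicates 1 and 2, with solid lines for equality and dotted lines for 2-fold. Eif4h lies above and Eif2b4 below the dotted band in CKO eggs, and WT replicate 3 has 25 members outside it by their normalized counts, with Eif5b above and Eif1ad below.

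Over the whole list the differences between genotypes were small. The median log2 difference of the 53 members was -0.08, beside -0.11 for all 20388 genes tested. Without WT replicate 3 it was 0.13 for the members, beside -0.15 for all genes, so that the sign of the members' median turned on this library. With all libraries the median absolute difference was 0.30, beside 0.95. Where the mean over the 6 libraries reached 200 normalized counts, a level set after the data were seen, the median absolute difference was 0.30 for 45 members and 0.57 for 9073 genes. Of those 45 members, 39 (86.7%) differed by less than 1 on the log2 scale, as did 73.3% of the 9073 genes. The 95% confidence interval lay within a 2-fold change either way for 12 of the 45 members (26.7%) and for 15.3% of the 9073 genes. The intervals of Eif4h and Eif2b4 lay wholly beyond a 2-fold change. Apart from these 2 and the 12 within 2-fold, every member's interval reached past 2-fold on at least 1 side.

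At GV, none of the members met the selection of the authors' deposited table, which lists genes with an unadjusted p under 0.05 and a difference of over 2-fold. That selection held 16.2% of the 21462 genes that the table's adjusted p-values imply were tested. Eif4h and Eif2b4 were therefore not selected at GV either, and their GV levels were not analysed here. A gene missing there failed at least 1 of the conditions, and nothing more is known of it. The stages were normalized separately, and a difference between GV and MII in the response of these 2 genes was not tested.

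Genes acting next to the initiation factors were taken in 6 lists, with 72 genes tested at MII, of which limma called 1 (1.39%), near the 1.51% of all genes. In a list of 19 initiation helpers and mRNA-binding translation factors, 1 rose, none fell and 18 did not pass the test, with a median log2 difference of 0.53 (0.40 without WT replicate 3). The call was Pabpc1, the cytoplasmic poly(A)-binding protein that contacts eIF4G, at 5794 ± 1447 normalized counts in CKO eggs and 414 ± 192 in WT eggs (SD, n = 3 each; limma log2 difference 3.91, SE 0.45, adjusted p = 0.00912). It was also the 1 gene of that list in the GV table. Ncbp1, the large subunit of the nuclear cap-binding complex, averaged 803 ± 151 in CKO eggs and 209 ± 104 in WT eggs (SD, n = 3 each; limma adjusted p = 0.0911). In the other lists none was called by limma, over 9 elongation genes, 9 termination and recycling genes, 15 genes of mTOR, MNK and S6 kinase signalling, 11 of the integrated stress response and 9 of mitochondrial translation, with median log2 differences of 0.28, 0.29, 0.36, -0.43 and -0.33. The same medians without WT replicate 3 were 0.36, 0.17, 0.02, -0.52 and -0.14. In the stress response list Ppp1r15a, the phosphatase subunit that reverses eIF2 phosphorylation, averaged 1146 ± 199.8 in CKO eggs and 3708 ± 1828 in WT eggs (SD, n = 3 each; log2 difference -1.60, SE 0.39, limma adjusted p = 0.0769). Without WT replicate 3 its log2 difference was -1.22 (adjusted p = 0.0578). Atf4, which encodes the transcription factor of this response, lay the other way at 4700.2 ± 2075 in CKO eggs and 2073 ± 1795 in WT eggs (SD, n = 3 each; log2 difference 1.43, SE 0.55, limma adjusted p = 0.243), and at 2.09 without WT replicate 3 (adjusted p = 0.0699). Chac1 averaged 121 ± 9.23 in CKO eggs and 990.2 ± 809 in WT eggs (SD, n = 3 each), with a log2 difference of -2.27 (limma adjusted p = 0.279). It was called lower in CKO eggs without WT replicate 3 (-3.54, adjusted p = 0.0346). Dnajc3, a chaperone that inhibits PERK, had a log2 difference of -1.50 (SE 0.47, limma adjusted p = 0.155), or -0.91 without WT replicate 3. Mknk1, a kinase that phosphorylates eIF4E, averaged 3415 ± 479 in CKO eggs and 7910.4 ± 1275 in WT eggs (SD, n = 3 each; log2 difference -1.21, SE 0.28, limma adjusted p = 0.0669). Rptor, the mTORC1 scaffold, had a log2 difference of -1.25 (SE 0.31, limma adjusted p = 0.0822), and Tsc1, an inhibitor of that pathway, of 1.59 (SE 0.34, limma adjusted p = 0.0572). For Mknk1, Rptor, Tsc1 and Ncbp1 the log2 differences without WT replicate 3 were -1.10, -1.24, 1.31 and 1.59, with limma adjusted p-values from 0.0506 to 0.0896.

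At GV the same lists had 11 genes in the authors' deposited table, from 75 genes in all, or 14.7%, near the 16.2% of all genes listed. Eef1a1, the elongation factor that delivers aminoacyl-tRNA, averaged 166493 ± 11677 normalized counts in CKO oocytes and 82874 ± 9310.5 in WT oocytes (SD, n = 3 each). Eef1g, a subunit of its exchange factor, averaged 6101 ± 321 in CKO oocytes and 2549.8 ± 517 in WT oocytes, while the synthetase-complex gene Eef1e1 averaged 2269 ± 401 and 5376 ± 1046 (SD, n = 3 each). Abce1, which splits ribosomes after termination, averaged 2516 ± 583 in CKO oocytes and 987 ± 311 in WT oocytes (SD, n = 3 each). Lower in CKO oocytes were Rptor, the GCN2 inhibitor gene Impact, and the stress response targets Chac1 and Sesn2, with log2 fold changes in the authors' deposited table of -1.09, -1.38, -1.58 and -1.72. The others were Pabpc1 and the mitochondrial factors Mtif2 (1.06) and Mtfmt (-1.01). All 11 were listed because they differed, so their differences describe a selection.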

How the data were processed

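The values of each library were deposited by the authors as log10(normalized count + 1), 1 table per stage. Per the file headers each table also gives a mean signal (normalized count), a log2 fold change, its standard error, a test score and p-values with and without adjustment. Which aligner, annotation, counter and strand setting were used is not given in the sources used here. Divided by the worth of 1 read in their library, 100% of the values lay within 0.05 of a whole number, which gave reads and depths.

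The main test, limma-trend (limma 3.58.1, R 4.3.3), used log2(normalized count + 1) of the 6 MII libraries. It covered 20388 genes with a mean of at least 1, with Benjamini-Hochberg adjustment. All 53 members passed that filter. Intervals are 95% from the same fit. The test was also run on simulated data in which all genes had the same spread setting and no library stood apart. That run does not bear on how the calls depend on single libraries. At GV no test was fitted, since the table holds selected genes. Named members were Lsm14b as a check, every called member, in each complex up to 4 members with the smallest p, and a fixed few (Eif4e, Eif4e1b, Eif2s3x and the 4E-binding proteins). In the other lists they were up to 4 with the smallest p or listed at GV. Other members, and genes named for a level, a ratio or WT replicate 3, were chosen after their values were seen. The members and lists were chosen with earlier results of these data known. The labels call replicates biological without saying whether tubes came from separate females, so p-values measure the spread between these libraries.

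Alternatives were another pseudocount, 2 other filters, library size alone, limma-voom on recovered reads, array weights, a replicate block, a 2-fold minimum, the authors' test and leaving out each library.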

Additional observations from a re-analysis of the deposited data

How the results depend on the processing

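The count of 2 called members was also 2 with a pseudocount of 0.1, with no filter on low values, with a mean of at least 10, with library size alone and with a 2-fold minimum, and 3 in the authors' deposited table. It was 1 with limma-voom on recovered reads (Eif4h), 6 with array weights, and 0 to 2 when a library was left out. Over all genes, 308 calls became 171 with limma-voom, 3190 with array weights and 1851 in the authors' deposited table, and 0 to 890 when a library was left out. Replicate numbers 2 and 3 occur in both genotypes at MII. The deviations of same-numbered libraries from their group means correlated at 0.0133 and -0.101. With so few libraries such values cannot exclude pairing, and the main fit did not take the numbers as pairs. With a replicate block limma called 0 members and 0 genes in all (1496 at an unadjusted p under 0.05), and the log2 difference was 1.99 for Eif4h and -1.73 for Eif2b4. Leaving out a library moved Eif4h between 2.25 and 2.93 and Eif2b4 between -1.95 and -1.51. Array weights put WT replicates 1, 2 and 3 at 0.984, 4.37 and 0.198, so that this fit rested mostly on 1 WT library. With these weights Eif3j1, Eif4e, Eif4e3 and Eif4ebp1 also passed. Signs turned for some members that were not called, among those for which the alternatives were computed. With array weights this held for Eif1a (-0.77), Eif2b2 (-0.074), Eif2b3 (-0.068), Eif3c (-0.042), Eif3d (-0.24), Eif4g1 (0.054), Eif5 (0.19), Eif5a (0.35) and Eif6 (0.093). With the replicate block it held for Eif1b (-0.16), Eif2s3x (0.0024), Eif3j2 (-0.55), Eif4a1 (-0.073), Eif4a3 (0.18), Eif4a3l2 (0.80) and Eif5a2 (0.24), and in the authors' deposited table for Eif3d (-0.042). With a library left out, the log2 differences ranged from -1.01 to 0.16 for Eif1, -0.067 to 0.40 for Eif2b2, -0.32 to 0.095 for Eif2s3x, -0.084 to 0.22 for Eif3c, -0.48 to 0.60 for Eif3d and -0.30 to 0.72 for Eif3j2. The ranges were -0.74 to 0.18 for Eif4a2, -0.92 to 0.39 for Eif4a3l2, -0.74 to 0.56 for Eif4e2, -0.25 to 0.12 for Eif4g1, -0.24 to 0.075 for Eif4g2, -0.30 to 0.19 for Eif5, -0.48 to 0.51 for Eif5a and -0.33 to 0.15 for Eif6. The cause of these changes was not tested. The split of higher and lower calls over all genes was 106 and 202 by limma and 91 and 80 by limma-voom. At GV no member was in the table, so the alternatives planned there gave no value and no paired fit was made. Depth limits Eif1a, Eif5a2, Eif4ebp1 and Eif4a3l1, with at most 11 reads in any CKO library.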

Other observations

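Pseudogene symbols left out of the members numbered 8 in the MII table. Most were near 0, but Eif4a-ps4 had 2386, 1777 and 2893 normalized counts in CKO eggs and 1262, 1220.4 and 2249 in WT eggs (limma log2 difference 0.61, SE 0.36). Eif3s6-ps4, named after the gene now called Eif3e, was at 0 in all 3 CKO libraries of both stages. In WT oocytes at GV it was at 42.7, 0 and 91.9 normalized counts, and in WT eggs at MII at 16.5, 65.8 and 0, so that 1 WT library of each stage was also at 0.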
